A study of Mus musculus with 2 samples.

Results

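The genes described here are 40 genes of the interferon response and of antigen presentation by major histocompatibility complex (MHC) class I, compared between wild-type and Fbxl10 T/T mouse embryonic stem (ES) cells. They were taken by name from the deposited table of gene expression, where the symbol of an entry is one of the 40 or an older synonym of the same Ensembl gene. Of the 40, 33 were among the 13620 listed genes, and 1 of these, Mavs, stood under an older symbol. The sensor genes Ifih1 and Tlr3, the effector genes Ifit1, Ifit2 and Ifi44, and the immunoproteasome genes Psmb8 and Psmb9 (7 in all) were not among the listed genes. The members fell into sensing (2 listed of 4), signalling (10 of 10), effectors (13 of 16), MHC class I (7 of 9) and 1 cytokine gene, Il33. Il33 was included with its difference in these data already known.

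Polyadenylated RNA was sequenced from 1 wild-type and 1 Fbxl10 T/T culture of ES cells of the C57BL/6J strain, to compare RNA levels of the T/T genotype with wild type. Both were grown with serum and leukemia inhibitory factor (LIF) on Mitomycin C inactivated mouse embryonic fibroblasts, which were depleted before use by letting them attach. Fbxl10 is an older symbol of Kdm2b, whose protein brings a variant Polycomb complex to unmethylated CpG islands. The labels do not say what the T allele alters or how many clones the T/T line represents. With 1 library per genotype there was no replicate, no test of the genotypes was possible, and "higher" and "lower" describe these libraries.

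Cells sense viral RNA in the cytosol through RIG-I and MDA5, encoded by Ddx58 and Ifih1, whose shared adaptor is MAVS. The interferons made in response bind paired receptor chains, and transcription factors such as STAT2 and IRF9 then switch on interferon-stimulated genes, among them the antiviral effectors and the genes that cut, transport and load peptides onto MHC class I. Pluripotent stem cells are known to respond weakly to interferon and to hold some effector genes, such as the Ifitm genes, at a high level without it.

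The table gives normalised CPM, gene reads per 1000000 of an effective library size. The wild-type library held 21198574 reads in listed genes and the T/T library 27109446, and 1 read was worth 0.0419 and 0.0405 CPM. Kdm2b was 9.66-fold lower in T/T, at 10.6 against 103 CPM (95% counting interval 8.50- to 11-fold). A gene counts as higher or lower when log2(CPM + 0.5) differed by at least 1 (2-fold) and it reached 1 CPM in a library. Folds are plain CPM ratios with exact (Clopper-Pearson) 95% intervals that cover counting error only, not variation between cultures. ES cell markers were mostly lower in T/T (12 of 16 lower, none higher) and extraembryonic endoderm markers mostly higher (18 of 22 higher, 3 lower). Over all genes at 1 CPM or more, 14.8% were higher and 20.6% lower. Which cells the cultures held was not tested. Fewer cells of a type and less RNA per cell cannot be told apart in such bulk samples. The median log2 ratio of all genes was 0.02, and 3 other ways of scaling the libraries lowered it by 0.13, 0.23 and 0.30.

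Of the 32 members at 1 CPM or more, 7 were higher in T/T, 10 lower and 15 in between, with a median log2 ratio of -0.04. Over all 13512 genes at that level, 14.8% were higher and 20.6% lower, 35.3% in either direction. The table lists a gene from 22 wild-type reads or from 28 T/T reads, so a weak gene could be listed through its higher library alone. That was so for Ifit3, Oas2, Oasl1, Rsad2 and Tap2, whose differences are partly fixed by the listing. Among the 28 members over the limit in both libraries, 6 were higher (21.4%), 8 lower (28.6%) and 14 in between, against 15.9% higher and 12.7% lower of the 11700 genes over the limit in both. The counts of higher members include Il33, whose difference was known when it was included. An exact binomial test of the reads, adjusted over all listed genes at 0.05, compares these libraries and not the genotypes. It called 13 of the 33 members higher and 15 lower, beside 42.4% and 40.9% of all genes, so most genes differed by more than counting error. The members did not share 1 direction: Ddx58, Mavs, Irf1, the Ifitm genes, H2-K1 and Tap1 were among the lower, and Ifnar2, Ifngr1, Ifngr2, H2-D1 and Il33 among the higher.

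**Figure D1:**
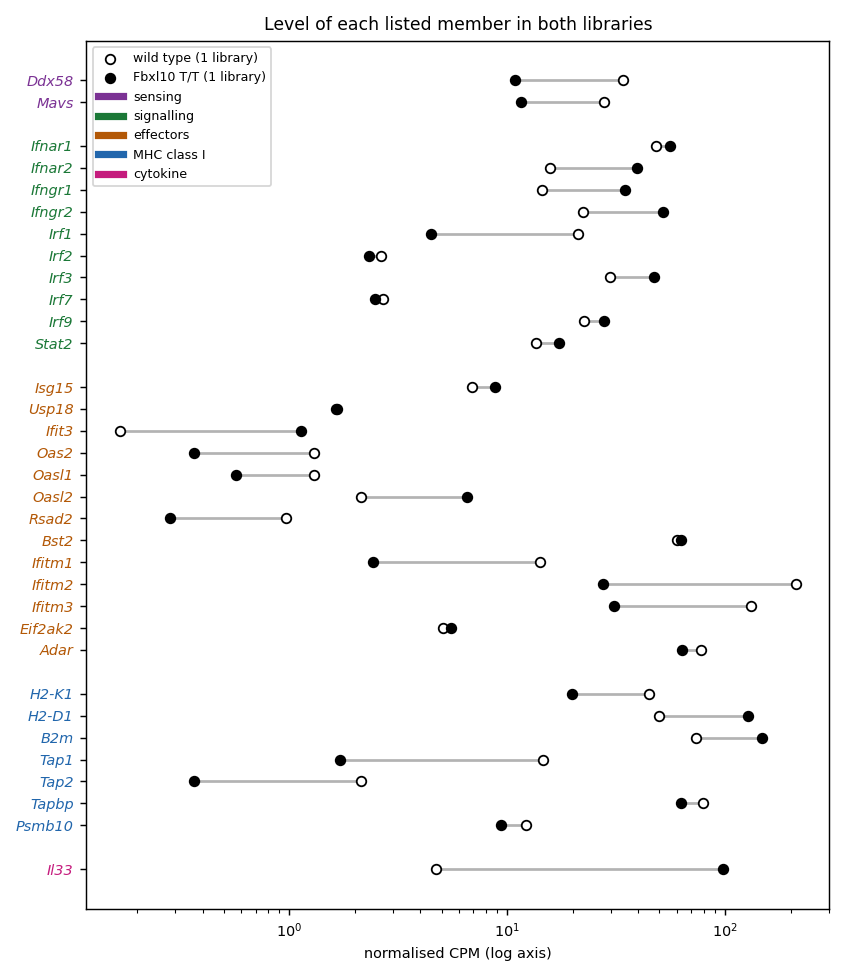
Normalised CPM (log axis) of the 33 listed members in the wild-type library (open circles) and the T/T library (filled circles), 1 library each, coloured by role. The Ifitm genes, Tap1 and Irf1 lie to the left in T/T, and Il33 moves from 4.73 to 97.5 CPM.

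Interferon-stimulated genes are commonly bound at an interferon-stimulated response element (ISRE), whose core was searched here as GAAA, any 2 bases and GAAA again, on either strand, in RefSeq promoters of GRCm38.p6 that run from 250 bases before to 50 after a gene's start. Of the 37 members with such a promoter, 13 (35.1%) held the repeat, against 3.99% of all 27025 genes. The stretches below are printed because members with the same repeat ranged from several-fold lower through nearly equal to higher levels. They run 5′ to 3′ along the gene, with the repeat in capitals. Ddx58, Ifitm2 and Ifitm3 were lower in T/T, and Isg15, Bst2 and Stat2 lay within the 2-fold limits. B2m had a plain ratio of 2.01 and fell just short of the 2-fold rule with the pseudocount. Ifit3 was higher on 4 and 28 reads, listed through T/T alone.
Ddx58 (chr4:40239804-40239833, minus strand): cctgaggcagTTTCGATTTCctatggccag
Ifitm2 (chr7:140955978-140956027, minus strand): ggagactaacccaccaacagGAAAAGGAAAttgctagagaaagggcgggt
Ifitm3 (chr7:141010715-141010743, minus strand): gGAAAAGGAAActtctgaGAAACCGAAAc
Isg15 (chr4:156200855-156200916, minus strand): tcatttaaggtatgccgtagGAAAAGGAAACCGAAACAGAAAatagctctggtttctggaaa
Bst2 (chr8:71537567-71537622, minus strand): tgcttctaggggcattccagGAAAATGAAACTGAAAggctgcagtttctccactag
Stat2 (chr10:128270256-128270305, plus strand): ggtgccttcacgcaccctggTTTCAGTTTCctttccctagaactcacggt
B2m (chr2:122147528-122147577, plus strand): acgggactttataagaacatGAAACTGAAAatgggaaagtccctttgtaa
Ifit3 (chr19:34583353-34583402, plus strand): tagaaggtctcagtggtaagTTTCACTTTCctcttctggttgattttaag

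Of the 9 members with the repeat and over the listing limit in both libraries, 3 were lower, 6 in between and none higher. B2m, with its plain ratio of 2.01, is counted as in between. Of the 18 without it, 5 were lower, 7 in between and 6 higher. The 6 include Il33, whose difference was known when it was included. Of all genes over that limit in both libraries, 15.9% were higher and 12.7% lower. The difference between the counts with and without the repeat was not tested. A match describes letters and shows no binding, and overlapping repeats, as in Isg15 with 3 and Bst2 with 2, were counted as 1 promoter. A second motif, TTCNNNGAA, the core of the gamma-activated site bound by STAT dimers, lay in 10 of 37 member promoters (27.0%) and in 9.55% of all genes. Of the 8 listed members with this second motif, all over the listing limit in both libraries, 1 was higher, 2 lower and 5 in between. Of the 19 without the second motif and over that limit, 5 were higher, Il33 among them, 6 lower and 8 in between. The shares over all such genes are again 15.9% higher and 12.7% lower. The counts with and without the second motif were not tested against each other either. In Irf1, a gene known to be induced through a gamma-activated site, the second motif began 90 bases before the start.
Irf1 (chr11:53769904-53769952, plus strand): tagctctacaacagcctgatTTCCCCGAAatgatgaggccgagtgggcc

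Both listed sensing genes were lower in T/T. Ddx58, on chromosome 4 from 40151892 to 40186793 in mm9, was at 34.1 CPM in wild-type cells and 10.9 CPM in T/T, 3.13-fold lower (interval 2.73- to 3.61-fold). Mavs, on chromosome 2 from 131059803 to 131073761, was at 27.8 and 11.6 CPM, 2.40-fold lower (interval 2.09- to 2.77-fold). Their summed level was 61.9 CPM in wild-type cells and 22.5 CPM in T/T. The sensor and its adaptor thus differed in the same direction by more than counting error.

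The list of other sensing genes also holds genes of death receptor signalling and the receptor for lipopolysaccharide. Of 21 listed of 25, 8 were higher (38.1%) and 4 lower (19.0%), with a median log2 ratio of 0.72. Over all genes at 1 CPM or more, 14.8% were higher and 20.6% lower. Tbk1, the kinase that activates IRF3, was at 19.0 CPM in wild-type cells and 62.2 CPM in T/T (3.27-fold higher). Ripk1, a kinase of death receptor signalling, was 2.97-fold higher, at 21.5 against 7.24 CPM. Tlr4, the receptor for lipopolysaccharide, was at 2.43 CPM from 60 reads in T/T against 3 reads in wild type, a ratio of 19.3 with a wide interval of 6.31 to 96.5. At the other end, ranked like all lists here by log2(CPM + 0.5), were Aim2, a cytosolic DNA sensor, at 7.75 and 0.648 CPM (12.0-fold lower), Rnf125, a ubiquitin ligase acting on RIG-I, at 2.30 and 0.284 CPM (8.12-fold lower), and Tmem173, which encodes the DNA-sensing adaptor STING, at 4.77 and 1.34 CPM (3.57-fold lower). Tlr4, Aim2 and Rnf125 were listed through their higher library alone. Of the 16 genes over the listing limit in both libraries, 6 were higher (37.5%) and 1 lower (6.25%), beside 15.9% and 12.7% of all such genes.

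Of the 4 interferon receptor chains, 3 were higher in T/T and none lower. All genes over the listing limit in both libraries gave 15.9% higher and 12.7% lower. Ifnar2, a chain of the type I receptor, was at 15.7 CPM in wild-type cells and 39.3 CPM in T/T (2.51-fold, interval 2.23 to 2.84). Ifngr1 and Ifngr2 encode the type II receptor that binds interferon gamma. Ifngr1 was at 14.4 and 34.8 CPM (2.42-fold, interval 2.13 to 2.75) and Ifngr2 at 22.3 and 51.7 CPM (2.32-fold, interval 2.10 to 2.57). The 3 ratios lie close together, with overlapping intervals. Ifnar1, the partner of Ifnar2, was at 48.2 and 55.8 CPM, and its direction turned under 2 of the 3 other scalings. These 2-fold calls are close to the limit: with the libraries scaled to the plain sum of their listed genes, the log2 ratios were 1.0 for Ifnar2, 0.94 for Ifngr1 and 0.89 for Ifngr2, and none of the 3 was called.

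Il10rb, which pairs with the type III receptor chain and with the interleukin 10 receptor, was also higher, at 18.2 against 3.35 CPM (5.44-fold, interval 4.28 to 6.99). Its partner Ifnlr1 was lower, at 0.162 CPM from 4 reads against 3.89 CPM (24-fold lower, interval 9.08 to 90.1). Ifnlr1 was listed through wild type alone, so its difference is partly fixed by the listing. Among the kinases that sit on these receptors, Jak2 was 4.12-fold higher (3.10 and 12.8 CPM), Tyk2 was 2.08-fold lower (51.5 and 24.8 CPM), and Jak1 lay in between at 44.1 and 82.6 CPM. In all, 2 of the 17 other signalling genes listed of 23 were higher (11.8%) and 4 lower (23.5%), with a median of 0.18. All genes at 1 CPM or more gave 14.8% and 20.6%. Of the 15 over the limit in both libraries, 2 were higher (13.3%) and 2 lower (13.3%). All genes over that limit gave 15.9% and 12.7%. Irf5, a member of the interferon regulatory factor family, was among the lower genes, at 5.44 and 0.689 CPM. Irf5 too was listed through wild type alone. The interferon genes Ifnb1, Ifng and Ifnk were not among the listed genes, so the table gives no level for these ligands. Other interferon genes were not looked up.

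Of the 6 member transcription factors, 1 was lower (16.7%) and none higher. All genes over the listing limit in both libraries gave 12.7% lower and 15.9% higher. Irf1, an activator of MHC class I and other interferon gamma targets, was at 21.1 CPM in wild-type cells and 4.46 CPM in T/T (4.75-fold lower, interval 3.85 to 5.89). Irf3, which acts after MAVS to induce interferon, was at 29.6 and 47.2 CPM (1.59-fold, interval 1.45 to 1.75), within the 2-fold limits. Stat2 and Irf9, whose proteins act in the complex that carries the type I signal, were within the 2-fold limits, Stat2 at 13.5 and 17.3 CPM and Irf9 at 22.6 and 27.9 CPM. The direction of Irf9 turned under 1 other scaling. Irf2, a factor that competes with IRF1, was at 2.64 and 2.31 CPM. Irf7, itself an interferon-stimulated gene, was at 2.68 and 2.47 CPM. The intervals of the Irf2 and Irf7 ratios, 0.601 to 1.27 and 0.639 to 1.33, include no difference.

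**Figure D2:**
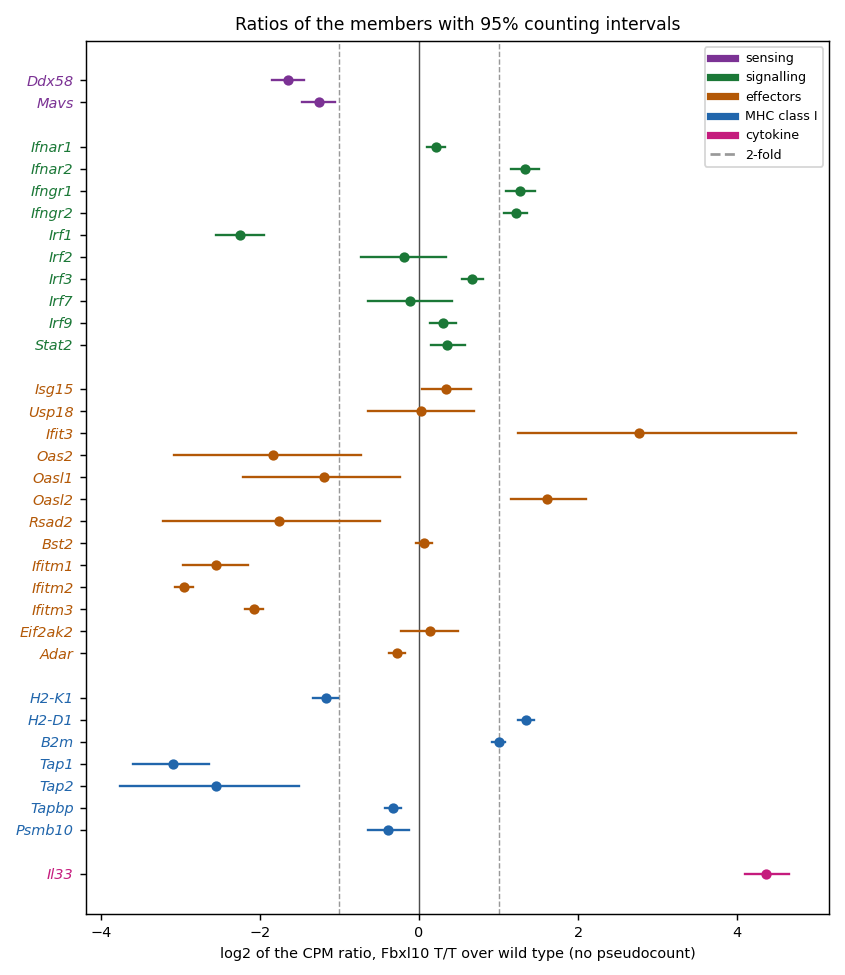
Log2 of the CPM ratio of T/T over wild type for the 33 listed members, without a pseudocount, with 95% counting intervals (lines), 1 library per genotype. Dashed lines mark 2-fold; the 3 Ifitm genes, Tap1 and Irf1 lie beyond 4-fold lower, and Ifit3, Oas2, Oasl1, Rsad2 and Tap2 have wide intervals because few reads were counted.

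The Ifitm genes had the lowest log2(CPM + 0.5) ratios of the effectors; their small membrane proteins block the fusion of virus with the cell. Ifitm2 was at 211 CPM in wild-type cells and 27.4 CPM in T/T (7.72-fold lower, interval 7.13 to 8.38). Ifitm3 was at 131 and 31 CPM (4.21-fold lower, interval 3.89 to 4.56), and Ifitm1 at 14.2 and 2.43 CPM (5.84-fold lower, interval 4.43 to 7.82). All 3 were called lower under every scaling tried. Their genes lie within 55.9 kb on chromosome 7 (148140736 to 148196612 in mm9) and resemble each other. In GENCODE M21 transcripts, 53.4% of the 36-base words of Ifitm2, 17% of Ifitm3 and 9.16% of Ifitm1 also occur in other genes, pseudogenes included. How reads with several matches were counted is not given in the sources used here, so the level of Ifitm2 in particular is uncertain. The 29 listed fibroblast markers summed to 3227 CPM in wild-type cells and 2182 CPM in T/T, with a median log2 ratio of -0.68. Of these markers, 5 were lower (17.2%) and none higher. Of all genes over the listing limit in both libraries, 12.7% were lower and 15.9% higher. Twist1 had the lowest log2 ratio of the fibroblast markers (28.6 and 4.17 CPM). The part of feeder RNA in the Ifitm levels was not tested.

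Several other effectors differed little between the libraries. Isg15, a ubiquitin-like protein attached to other proteins after interferon, was at 6.91 CPM in wild-type cells and 8.79 CPM in T/T (1.27-fold, interval 1.03 to 1.57). Usp18, the protease that removes it, was at 1.63 and 1.66 CPM. Eif2ak2, which encodes the RNA-activated kinase PKR, was at 5.07 and 5.55 CPM. Bst2, which encodes tetherin and holds budding virus at the membrane, was more abundant, at 60.0 and 62.7 CPM (1.04-fold, interval 0.971 to 1.12). The directions of Usp18, Eif2ak2 and Bst2 turned under the other scalings. Adar, which edits adenosine in double-stranded RNA, was at 77.3 and 63.8 CPM (1.21-fold lower, interval 1.13 to 1.3). For these 5 genes the libraries differed by less than 1.5-fold.

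Of the listed oligoadenylate synthetase family, whose active members make the messenger that switches on RNase L, only Oasl2 was higher in T/T. Oasl2 was at 6.52 CPM in T/T against 2.14 CPM in wild-type cells (3.05-fold, interval 2.22 to 4.27). Its neighbour Oasl1 was at 1.3 CPM in wild-type cells and 0.567 CPM in T/T, and Oas2 at 1.3 and 0.365 CPM, from 14 and 9 reads in T/T. The family genes Oas1a, Oas1c and Oas1g are not members and were listed through wild type alone. Their reads in wild type and T/T were 63 and 15, 28 and 13, and 23 and 4. Rsad2, which encodes viperin, had 23 reads in wild-type cells and 7 in T/T and did not reach 1 CPM in either. Ifit3, which binds other IFIT proteins, had 4 and 28 reads, a ratio of 6.77 with an interval of 2.37 to 26.6. It shares 58.5% of its 36-base words with other genes, chiefly Ifit3b, so its value is uncertain. Apart from Oasl2 and Oas1a, these genes were close to the smallest number of reads that the table lists.

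The wider set of interferon-stimulated genes was spread in both directions. Of 78 written down, 38 were listed, and of the 36 at 1 CPM or more, 11 were higher (30.6%) and 12 lower (33.3%), with a median of -0.18. Among all genes at 1 CPM or more, 14.8% were higher and 20.6% lower. Of the 31 genes of this set over the limit in both libraries, 11 were higher (35.5%) and 9 lower (29.0%). All genes over that limit gave 15.9% and 12.7%. By log2(CPM + 0.5) the lowest were Parp12, a mono-ADP-ribosyltransferase gene, at 34.8 CPM in wild-type cells and 2.51 CPM in T/T (13.9-fold lower), Zc3hav1, whose protein ZAP binds CpG-rich viral RNA, at 61.2 and 6.44 CPM (9.50-fold lower), and Apobec3, a cytidine deaminase gene, at 40.8 and 4.58 CPM (8.92-fold lower). The highest were Xaf1, linked to cell death, at 75.3 against 6.11 CPM (12.3-fold higher), Lgals9, which encodes galectin 9, at 404 against 37.1 CPM (10.9-fold), and Plscr1, which encodes a phospholipid scramblase, at 433 against 59.4 CPM (7.30-fold). Mx1, Mx2, Oas3, Cxcl9 and the Gbp genes other than Gbp2 were among the 40 that were not listed.

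The MHC class I genes divided between the 2 classical heavy chains. H2-K1, on chromosome 17 from 34132973 to 34137229 in mm9, was at 44.7 CPM in wild-type cells and 19.8 CPM in T/T (2.25-fold lower, interval 2.02 to 2.51). H2-D1, from 35400039 to 35404440, was at 49.9 and 127 CPM (2.54-fold higher, interval 2.37 to 2.72). The 2 genes were near the same level in wild type and differed several-fold in T/T. The entry of H2-D1 is shared with H2-L in the table. Of their 36-base words, 17.6% in H2-K1 and 21.8% in H2-D1 occur in other genes, so reads could be divided between them, and a mapping effect on this contrast was not tested. B2m, the light chain that all class I molecules need, was at 73.8 and 148 CPM, a ratio of 2.01 (interval 1.89 to 2.12). With the pseudocount it fell just short of the 2-fold rule, and with the plain-sum scaling its log2 ratio was 0.69.

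The peptide transporter genes were both lower. Tap1 was at 14.6 CPM in wild-type cells and 1.70 CPM in T/T (8.56-fold lower, interval 6.21 to 12.1). Tap2 was at 2.14 and 0.365 CPM, from 51 and 9 reads (5.86-fold lower, interval 2.86 to 13.5). Tap2 was listed through wild type alone, so its difference is partly fixed by the listing. TAP1 and TAP2 form 1 channel that brings cytosolic peptides to the class I molecules. Tapbp, which encodes tapasin and ties the transporter to them, was at 79.3 and 63.1 CPM, and 29.0% of its exon bases overlap exons of other genes. Psmb10, an immunoproteasome subunit gene, was at 12.2 and 9.36 CPM. The 3 constitutive subunits that immunoproteasome subunits replace were likewise within the 2-fold limits: Psmb5 at 201 and 159 CPM, Psmb6 at 404 and 283 CPM and Psmb7 at 321 and 314 CPM.

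Of the other class I heavy chain genes, 2 were over the listing limit in both libraries, H2-Q4 and H2-T22, with 1 lower and 1 in between. H2-Q4 was at 10.8 CPM in wild-type cells and 1.38 CPM in T/T (7.81-fold lower, interval 5.45 to 11.5). H2-Q6, H2-Q7, H2-Q10 and H2-M3 had 2 to 5 T/T reads and were listed through wild type alone. H2-T22 was at 7.24 and 4.86 CPM. Rfx5, a factor that binds class I and class II promoters, was 10.2-fold lower (8.29 and 0.810 CPM, interval 6.45 to 17.1). Rfx5 was likewise listed through wild type alone. Nlrc5, the class I coactivator, was not among the listed genes. The 4 endoplasmic reticulum chaperone genes, which also serve many other proteins, were all higher. Pdia3 was at 426 and 1587 CPM (3.73-fold), Hspa5 at 414 and 1188 CPM (2.87-fold), Calr at 927 and 2313 CPM (2.50-fold) and Canx at 232 and 497 CPM (2.15-fold). Across the 23 listed genes of this list 4 were higher (17.4%) and 8 lower (34.8%), with a median of -0.51. All genes at 1 CPM or more gave 14.8% and 20.6%. But of the 15 over the limit in both libraries, 4 were higher (26.7%) and 1 lower (6.67%). All genes over that limit gave 15.9% and 12.7%.

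**Figure D3:**
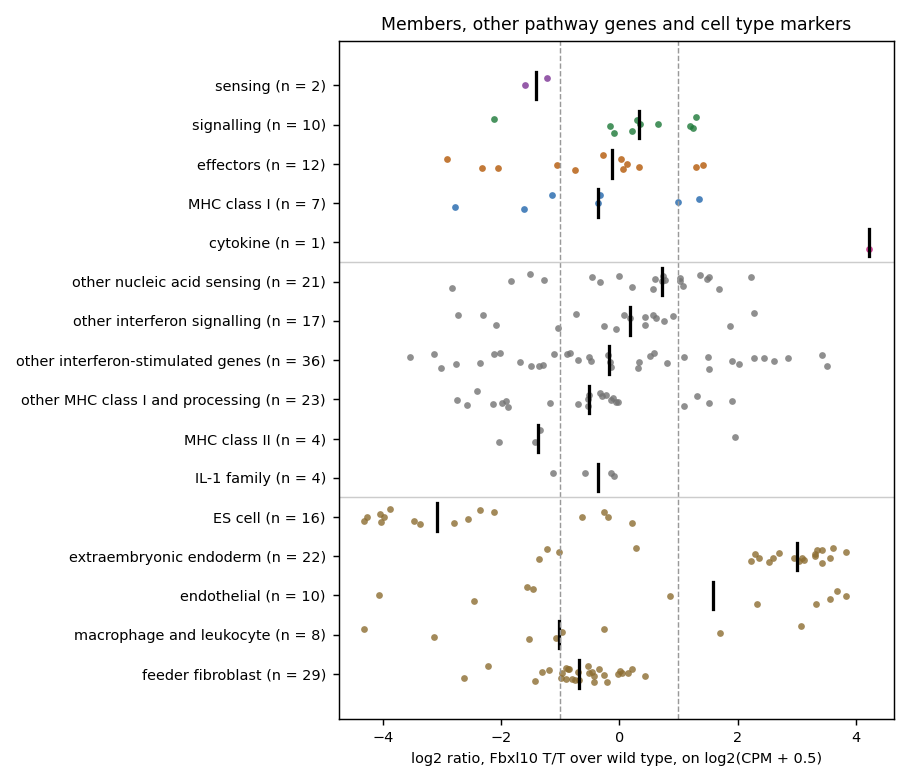
Log2 ratios of T/T over wild type on log2(CPM + 0.5) for genes at 1 CPM or more, by list: members (top), other pathway genes (middle) and cell type markers (bottom). Each point is a gene, black bars are medians and dashed lines mark 2-fold; the other interferon-stimulated genes run from -3.55 to 3.52, and the extraembryonic endoderm markers centre on 3.01.

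Il33 had the largest ratio of the members. This nuclear cytokine of the interleukin 1 family, known from epithelial and endothelial cells and released on damage, was at 4.73 CPM (113 reads) in wild type and 97.5 CPM (2408 reads) in T/T, 20.6-fold higher (interval 17.1 to 25.1). The gene lies on chromosome 19 from 29999604 to 30035194 in mm9. The gene of its receptor, Il1rl1, was lower, at 18.6 and 8.26 CPM (2.25-fold lower), and the coreceptor gene Il1rap was at 1.76 and 1.54 CPM. Of 13 other interleukin 1 family genes, 4 were listed, with 1 lower and none higher. Markers of endothelial cells divided, with 5 of 10 higher and 4 lower, or 5 higher and 1 lower of the 7 over the limit in both libraries. Kdr (2.64 and 36.5 CPM), Flt1 (21 and 277 CPM), Cdh5 (3.94 and 44.2 CPM) and Esam (7.96 and 120.3 CPM) were higher, while Pecam1 (73.7 and 3.89 CPM), Tie1 (2.30 and 0.446 CPM) and Vwf (4.52 and 0.405 CPM) were lower. Tie1 and Vwf were listed through wild type alone. The summed level of the endothelial markers was 157 CPM in wild-type cells and 656 CPM in T/T. That of extraembryonic endoderm markers was 9124 and 78851 CPM. The part of either cell type in the Il33 level was not tested.

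Markers of leukocytes, which carry high levels of MHC genes, were few. Of 20, 8 were listed, 2 higher and 4 lower (1 and 2 of the 4 over the limit in both libraries), with summed levels of 442 CPM in wild-type cells and 83.3 CPM in T/T. Ptprc, Adgre1, Cd14, Aif1 and Tyrobp were not among the listed genes. Laptm5 made up most of the sum (402 and 19.5 CPM), and Csf1r was 9.07-fold higher in T/T, at 48.6 against 5.36 CPM.

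Levels between members were compared per kilobase of exon, with exon lengths of GENCODE M21, since the authors' annotation is not given in the sources used here. In wild type the most abundant members were Ifitm2 at 323 and Ifitm3 at 193 CPM per kb, followed by B2m at 85.8 and Bst2 at 66.5 CPM per kb. In T/T the order was B2m at 172, Bst2 at 69.4, H2-D1 at 49.1, Ifitm3 at 45.7, Ifitm2 at 41.8 and Il33 at 33.8 CPM per kb. Il33 thereby moved from rank 23 to rank 6 of the 33 members, and H2-K1 from rank 7 to rank 15. The receptor chains Ifnar2, Ifngr1 and Ifngr2 stood at 4.70 to 5.91 CPM per kb in wild type and at 11.8 to 13.7 CPM per kb in T/T. Rsad2, Oas2 and Ifit3 were at the bottom in wild type, at 0.0960 to 0.292 CPM per kb.

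**Figure D4:**
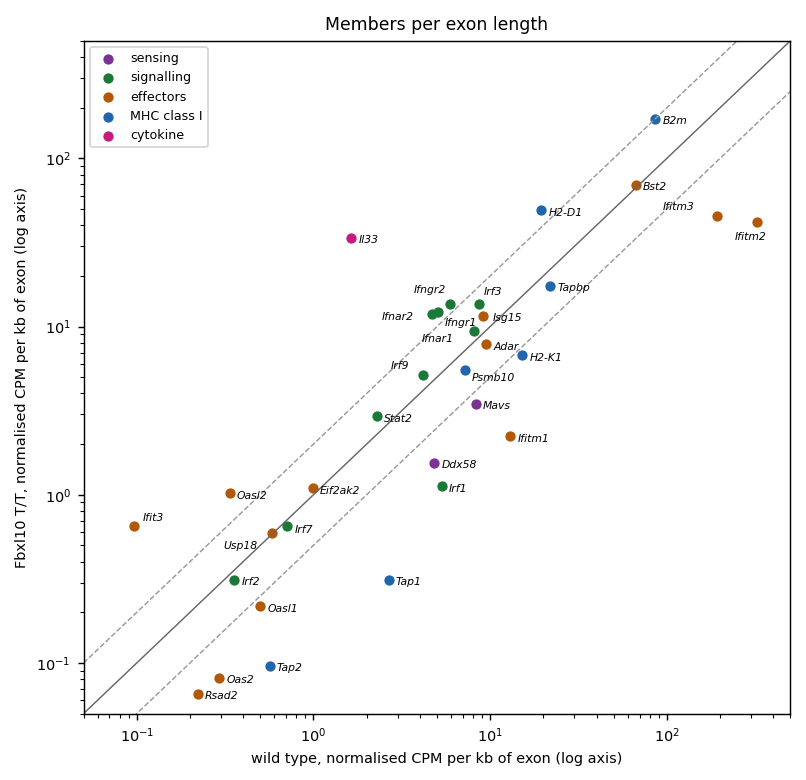
Normalised CPM per kb of exon in T/T against wild type for the 33 listed members, both axes logarithmic, with the line of equality and dashed 2-fold lines. Il33 stands above the upper dashed line at 1.64 and 33.8, and Ifitm2 below the lower one at 323 and 41.8 CPM per kb.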

How the data were processed

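Polyadenylated RNA of 1 wild-type and 1 Fbxl10 T/T culture was analysed from the deposited table. Per the submitters' processing notes the build was mm9 and the tools edgeR, HTSeq 0.5.3p9 and TopHat 1.4.1. What each was used for, and with which annotation and strand setting, is not stated in the sources at hand. The deposited signal is normalised CPM: all values (100.0%) were whole multiples of 1 step per library, within 0.01 reads, so reads were recovered. The columns summed to 887645 and 1098136. The authors' deposited log2 ratio, wild type over T/T, differed from the recomputed one by at most 0.00283 at 5 CPM or more. The 24706 rows gave 13620 genes, of which 13443 matched GENCODE M21.

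The log2 ratio is that of T/T over wild-type CPM, with a pseudocount of 0.5, and is not a test. Intervals are Clopper-Pearson; PCR copies are not independent molecules. Reads of the libraries were also compared by an exact binomial test, adjusted by Benjamini-Hochberg over 13620 genes. The members and lists were chosen with earlier results of these data known; promoter motifs, shared words and the limit in both libraries were added later. Named genes are all listed members, Kdm2b, up to 3 genes at either end of each list, partners of members and up to 4 genes of each marker list. Tyk2, Canx, Oas1a, Oas1c, Oas1g and further markers were picked after values were seen. So were the subgroups of class I heavy chains, chaperones and constitutive proteasome subunits, and genes named as not listed. Some genes that this rule names are given only in counts. Alternatives were other pseudocounts, minimums, scalings and folds. The steps were tested on simulated reads. The scripts used scipy 1.17.1, pandas 2.3.3 and numpy 2.4.6 under Python 3.11.15.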

Additional observations from a re-analysis of the deposited data

How the results depend on the processing

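No paired analysis was possible because each genotype had only 1 library, so none could be left out either. The 7 higher members became 3 with plain-sum scaling and 1 at 4-fold, and the 10 lower became 5 at 4-fold. Scaling took Ifngr2, Ifngr1 and Ifnar2 under 2-fold and Ifit3 under the minimum of 1 CPM, with its log2 ratio still at 1.13 and 1.09; the same 10 members were lower under all 3 scalings. Over all genes, higher calls numbered 1310 with plain-sum scaling, 3582 at 1.5-fold and 519 at 4-fold, and lower calls 1229 at 4-fold, 1737 with a minimum of 5 CPM and 1489 over the listing limit in both libraries, the last 2 from fewer genes. The sensing median moved to -1.64 and -1.71, and the fibroblast median to -0.91 and -0.98, with upper-quartile and plain-sum scaling, which lower every ratio. The MHC class II median of -1.38 went to -2.16 with a pseudocount of 0.1 CPM and reversed to 1.96 with a minimum of 5 CPM and over the limit in both libraries, where H2-Eb1 alone remained. Medians near 0 changed sign: all members -0.04 to 0.12 and effectors -0.13 to 0.02, with a 5 CPM minimum and over the limit in both libraries respectively, other interferon signalling 0.18 to -0.06 and -0.13 by scaling, and other interferon-stimulated genes -0.18 to 0.10 with a 5 CPM minimum. That minimum also moved the endothelial median from 1.59 to 3.33, the leukocyte one from -1.03 to -2.11 and the interleukin 1 family one from -0.37 to -1.13. Of the single-gene ratios recomputed, 51 left their counting intervals, mostly by scaling, and 114 did not. Depth limits Ifit3, Oas2, Oasl1, Rsad2 and Tap2, and 3 reads correspond to 0.126 and 0.122 CPM.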

Other observations

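MHC class II genes were listed in 4 of 10 cases and at low levels. H2-Eb1, a class II beta chain gene, was 5.32-fold higher in T/T, at 5.35 against 1.0 CPM (interval 3.43 to 8.60). Its neighbour H2-Ab1 had 3 reads in T/T and 28 in wild type. Cd74, the invariant chain gene, was at 3.06 CPM in wild-type cells and 0.365 CPM in T/T, and H2-DMa at 2.09 and 0.527 CPM. H2-Ab1, Cd74 and H2-DMa were listed through wild type alone, so their differences are partly fixed by the listing. The class II coactivator gene Ciita was not among the listed genes.

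Several members lie in gene clusters, whose position was not used to choose them. Within 192 kb on chromosome 16 (91373049 to 91565414 in mm9) 5 genes were listed. Ifnar2, Il10rb and Ifngr2 were higher, Ifnar1 lay in between at 48.2 and 55.8 CPM, and Gm7856 was lower. Over the MHC region of chromosome 17 from Tapbp to H2-M3 (34056423 to 37411430), 107 genes were listed, 14 higher (13.1%) and 37 lower (34.6%), beside 14.8% and 20.6% over all genes. Of the 84 over the listing limit in both libraries, 12 were higher (14.3%) and 17 lower (20.2%), beside 15.9% and 12.7% of all such genes. H2-D1 was among the higher genes of the region. Oas2, Oasl1 and Oasl2 lie on chromosome 5, as does Kdm2b, at distances of 2120891, 7932767 and 7958455 bases from it.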
